A study of Oryza sativa with 2 samples.

Results

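The rice (Oryza sativa) loci described here were 152 of the 1349 loci at which small non-coding RNA was sequenced. They were chosen by position and length alone. A member lay on a nuclear chromosome, was 100 to 149 nt long, and had no other listed locus within 500 nt on the same strand. Loci in 3 nuclear stretches, on chromosomes 1, 4 and 10, were left out, which removed 7 that otherwise met the rule. Another 127 nuclear loci of this length outside those stretches had a neighbour within 500 nt and were not members. Names (JNnc_loci and a number) and positions were taken from the deposited lists, of a genome build not given in the sources used here. The lists hold no sequence and no gene annotation, so it was not determined which loci are exonic, intronic or intergenic, and the labelled tissues could not be checked against marker genes.

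RNA of 50 to 500 nt was sequenced on the 454 platform in 2 libraries. The stage 1 library (838 loci, 80651 reads) is labelled with coleoptiles, radicals, shoot, and tillering leaves. The stage 2 library (1163 loci, 117798 reads) is labelled with anther, pistil and grouting embryo. These read numbers are sums over the listed loci, and a read listed at several loci would be included at each. No source used here gives the cultivar, the plant age or whether the tissues of a stage were pooled. There was 1 library per stage and therefore no replicate error. Each comparison is between these 2 libraries. Intervals of ratios cover counting error only, and intervals of shares of loci treat the loci as independent.

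Small nuclear RNAs form the core of the spliceosome, which removes introns from messenger RNA. Small nucleolar RNAs guide chemical changes of ribosomal RNA: those with C and D boxes guide 2′-O-methylation, and those with H and ACA boxes, usually longer, guide the making of pseudouridine. In plants many small nucleolar RNA genes lie in tandem clusters, while small nuclear RNA genes are typically dispersed copies, each with its own promoter. The deposited lists do not say to which of these classes, if any, a locus belongs.

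The members held 15807 stage 1 reads and 22333 stage 2 reads, 19.60% and 18.96% of the libraries. Most members were weakly covered: 59 had 3 reads or fewer over both libraries and the median was 6. The 62 members with 20 reads or more held nearly all reads, and the other 90 held 0.924% of the members' stage 1 reads and 1.07% of their stage 2 reads. The 10 strongest members held 71.2% and 68.1% of them. The ratio of stage 2 to stage 1 reads per 1000000 library reads (RPM), given below as the ratio, was 0.967 for all members (95% exact conditional binomial interval 0.948 to 0.987). It turned to 1.14 without the 2 strongest members of 129 nt and to 1.07 without the 10 strongest members, so it described a few loci. RPM values are shares of the summed reads of a library's listed loci. More cells of a tissue cannot be told apart from more RNA per cell.

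Members were listed in both libraries in 76 of 152 cases (50.0%, 95% Clopper-Pearson interval 41.8 to 58.2), beside 48.3% of all loci. Such an interval treats loci as independent draws, which loci with equal counts may not be. The 24 members listed in stage 1 only had a median of 3 reads and at most 9, and 20 of them had 2 or 3. The 52 listed in stage 2 only also had a median of 3 reads, but 5 of them had 10 or more. A count of 0 still allows 3 reads, or 37.2 RPM in stage 1 and 25.5 in stage 2, so most of these absences were not detectable differences at this depth. Members in both libraries had a median of 99.5 reads over the libraries and a median length of 129 nt. The median length was 108.5 nt for members of stage 1 only and 114 nt for those of stage 2 only.

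**Figure D1:**
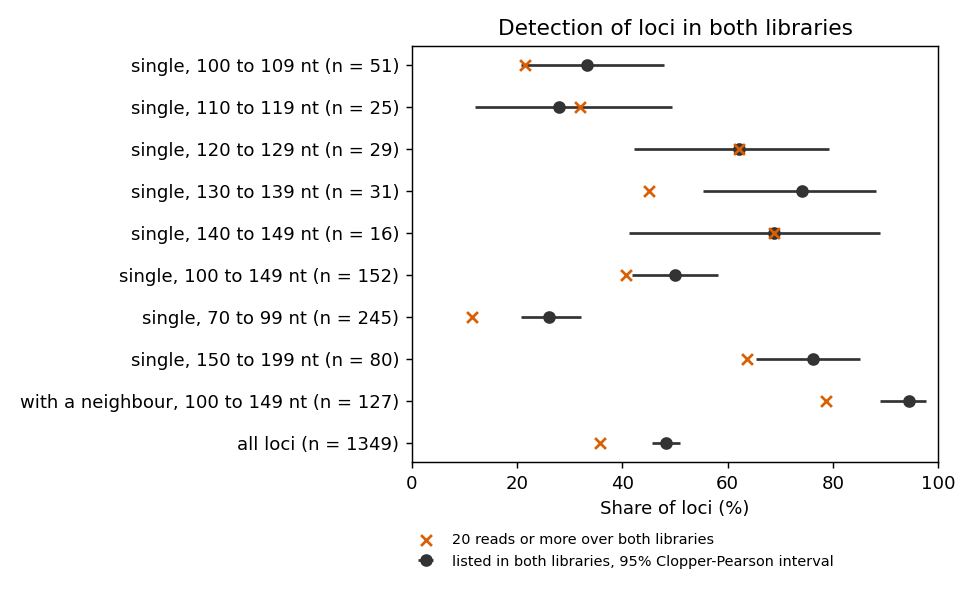
Share of loci listed in both libraries (circles, with 95% Clopper-Pearson intervals) and share with 20 reads or more (crosses), for single nuclear loci by length and for other classes of loci; the horizontal axis is the share of loci in percent. The shares for loci of 100 to 119 nt lie below those for loci of 120 to 149 nt.

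Detection differed by length within the set, though neighbouring intervals overlapped. Of the 51 members of 100 to 109 nt, 17 were in both lists (33.3%, 20.8 to 47.9), and of the 25 members of 110 to 119 nt 7 were (28.0%, 12.1 to 49.4). The share was 62.1% (42.3 to 79.3) of 29 members of 120 to 129 nt, 74.2% (55.4 to 88.1) of 31 of 130 to 139 nt and 68.8% (41.3 to 89.0) of 16 of 140 to 149 nt. The shorter members also had fewer reads, with a median of 3 for both classes under 120 nt against 128, 14 and 40.5 for the longer classes. Among other loci, 26.1% (20.7 to 32.1) of the 245 single nuclear loci of 70 to 99 nt and 76.3% (65.4 to 85.1) of the 80 of 150 to 199 nt were in both lists. Nuclear loci of 100 to 149 nt that did have a neighbour were in both lists in 120 of 127 cases (94.5%, 89.0 to 97.8). Of these, 78.7% had 20 reads or more, beside 40.8% of the members, so the shares are not at equal read number.

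With 152 members and 50 possible lengths, some lengths must repeat. Repeats were not compared with those of other loci or with an even spread, so no excess of repeats was shown. The 152 members took 43 of the 50 possible lengths, and 102 members had 1 of the 19 lengths held by at least 4 members. The most frequent was 101 nt with 11 members, followed by 109 nt with 8 and 133 nt with 7. With loci of equal length and counts entered once, 101 nt had 7, 109 nt and 127 nt had 6 each, and 133 nt had 5. Most repeats were among weak loci. With members of 20 reads or more only, 3 lengths were held by at least 4, namely 101 nt by 6, 127 nt by 5 and 129 nt by 5. Of the 6 at 101 nt, 4 had equal counts, and with these entered once 101 nt was held by 3. None of the 6 members of 106 nt and none of the 5 of 108 nt reached 20 reads, and JNnc_loci0606, the strongest of 108 nt, had 0 and 5 reads in stage 1 and stage 2. At 106 nt JNnc_loci0212, JNnc_loci0749 and JNnc_loci1145 tied as strongest with 3 and 1 reads each, the counts of a chloroplast locus of that length as well. The strongest of the 5 members of 105 nt, JNnc_loci1162, had 5 stage 1 reads and 0 in stage 2.

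**Figure D2:**
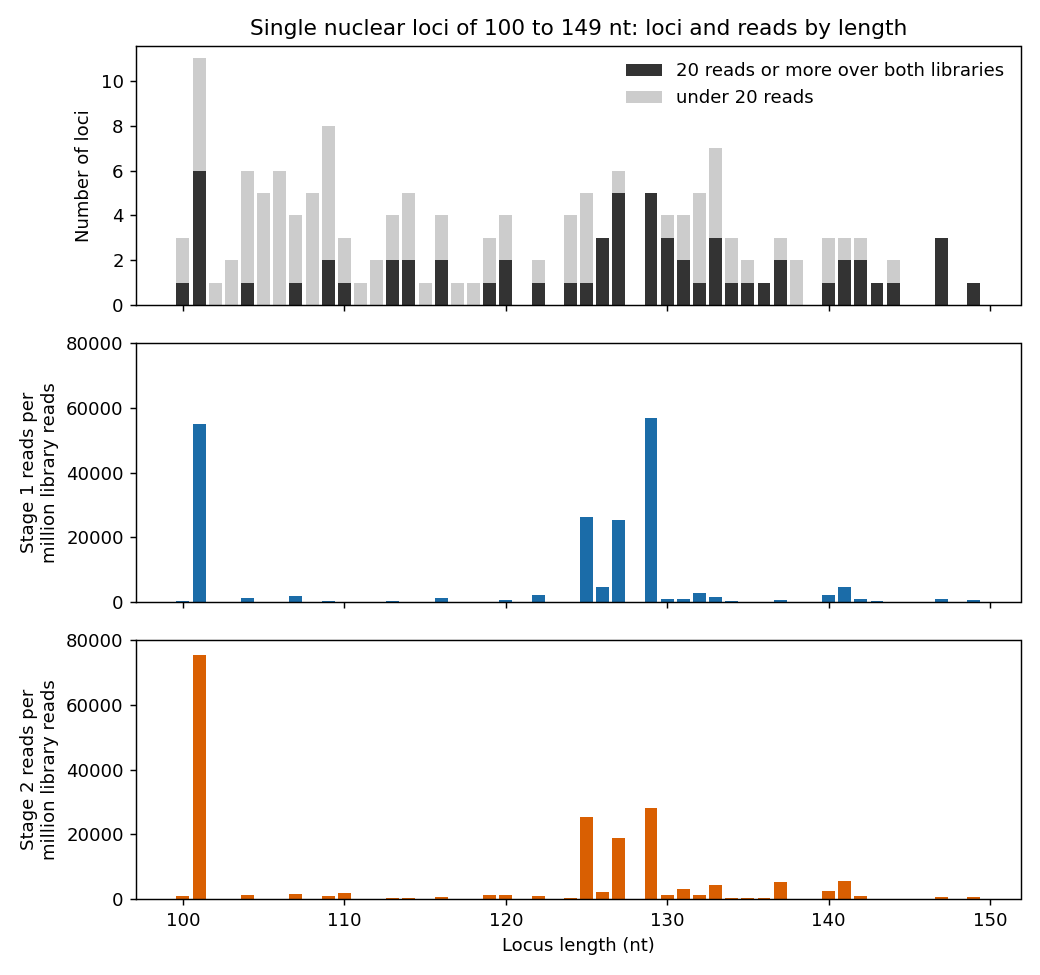
Number of members at each length in nt (top; dark, 20 reads or more; light, under 20), and their summed RPM at each length in stage 1 (middle) and stage 2 (bottom). The members' reads stand at 101 nt and at 125 to 129 nt in both libraries, with 101 nt the tallest in stage 2. Loci with equal counts are each included.

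By reads, the set had a narrow group at 101 nt, the length with most members, and a broader one at 125 to 129 nt, the 5 neighbouring lengths with most reads. The choice of these groups followed from the values. The 11 members of 101 nt held 28.1% of the members' stage 1 reads and 39.8% of their stage 2 reads. These shares, from 4436 and 8891 reads, count 4 loci of equal counts separately. With equal groups entered once, the members of 101 nt had 1874 and 4296 reads, of 13118 and 17302 for all members. The 19 members of 125 to 129 nt held 57.8% and 39.3%. The 72 members of 102 to 124 nt held 4.59% and 6.13%.

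The 101 nt members split into strong and weak loci, with 6 of 20 reads or more and 5 of 17 or fewer. JNnc_loci0359 (chromosome 3, 16118929 to 16119029), JNnc_loci1184 (chromosome 11, 22758454 to 22758554), JNnc_loci1185 (chromosome 11, 22761692 to 22761792) and JNnc_loci1239 (chromosome 12, 19925294 to 19925394), all on the plus strand, each had 854 stage 1 and 1531 stage 2 reads. JNnc_loci1190 (chromosome 11, 23432280 to 23432380, minus strand) had 555 and 1385 reads, a ratio of 1.71 (1.55 to 1.89). JNnc_loci0532 (chromosome 4, 19045366 to 19045466, plus strand) had 463 and 1357 reads, a ratio of 2.01 (1.80 to 2.23). These last loci had fewer reads than the equal 4 in both libraries, and the gap was wider in stage 1. The 6 together had a ratio of 1.37 (1.32 to 1.42), or 1.56 (1.48 to 1.65) with the equal group entered once. Relative to the median ratio of 1.39 over the 483 loci of the series with 20 reads or more, the 6 turned to 0.986, and the equal 4, at 1.23 (1.13 to 1.34), turned to 0.884. Among the weak 5, JNnc_loci1158 on chromosome 11 had 0 and 17 reads, and JNnc_loci0197, JNnc_loci0563, JNnc_loci0628 and JNnc_loci0795 had 2 to 4 reads in 1 library and 0 in the other.

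The strong members of 125 to 129 nt were in the main lower in stage 2. JNnc_loci0909 (125 nt, chromosome 7, 26290401 to 26290525) had the most reads of the set, 2104 and 3002, and a ratio of 0.977 (0.924 to 1.03). It stood alone at its length, since the other 4 members of 125 nt had at most 3 reads. The 5 members of 129 nt were listed in both libraries. JNnc_loci0800 (chromosome 6, 28106826 to 28106954, plus strand) had 2675 and 1822 reads, a ratio of 0.466 (0.439 to 0.495). JNnc_loci0803 (chromosome 6, 28197729 to 28197857, minus strand) had 1236 and 750 reads, a ratio of 0.415 (0.379 to 0.455). JNnc_loci0708 on chromosome 5 had 342 and 257 reads, JNnc_loci0093 on chromosome 1 had 297 and 388, and JNnc_loci0616 on chromosome 4 had 45 and 83. Their ratios went from 0.514 (0.436 to 0.607) for JNnc_loci0708 to 0.894 (0.767 to 1.04) for JNnc_loci0093 and 1.26 (0.868 to 1.86) for JNnc_loci0616. The last 2 had intervals that included 1, and the other 3 lay below it.

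Of the 8 members of 126 and 127 nt with 20 reads or more, 7 had an interval below 1. Of these 7, 4 were close neighbours on chromosome 4, JNnc_loci0618 to JNnc_loci0621, described below, which may not be independent. JNnc_loci0309 (127 nt, chromosome 3, 5827136 to 5827262) had 805 and 769 reads, a ratio of 0.654 (0.592 to 0.723). JNnc_loci0378 (127 nt, chromosome 3, 22168300 to 22168426) had 516 and 530 reads, a ratio of 0.703 (0.622 to 0.795), and JNnc_loci0354 (127 nt, also on chromosome 3) had 488 and 549, a ratio of 0.770 (0.681 to 0.872). JNnc_loci1195 (127 nt, chromosome 11) was the exception at 1.66 (1.29 to 2.16), from counts of 88 and 214. Over all 14 members of 125 to 129 nt with 20 reads or more, 10 had an interval below 1 and 1 above it. Among all 483 loci of the series with that many reads, 22.8% lay below and 48.4% above. The 4 neighbours on chromosome 4 are among the 10. The summed ratio of the 14 was 0.656 (0.637 to 0.676), and 0.618 (0.592 to 0.646) without JNnc_loci0909 and JNnc_loci0800. Scaled to the median locus these were 0.473 and 0.446, on the same side.

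**Figure D3:**
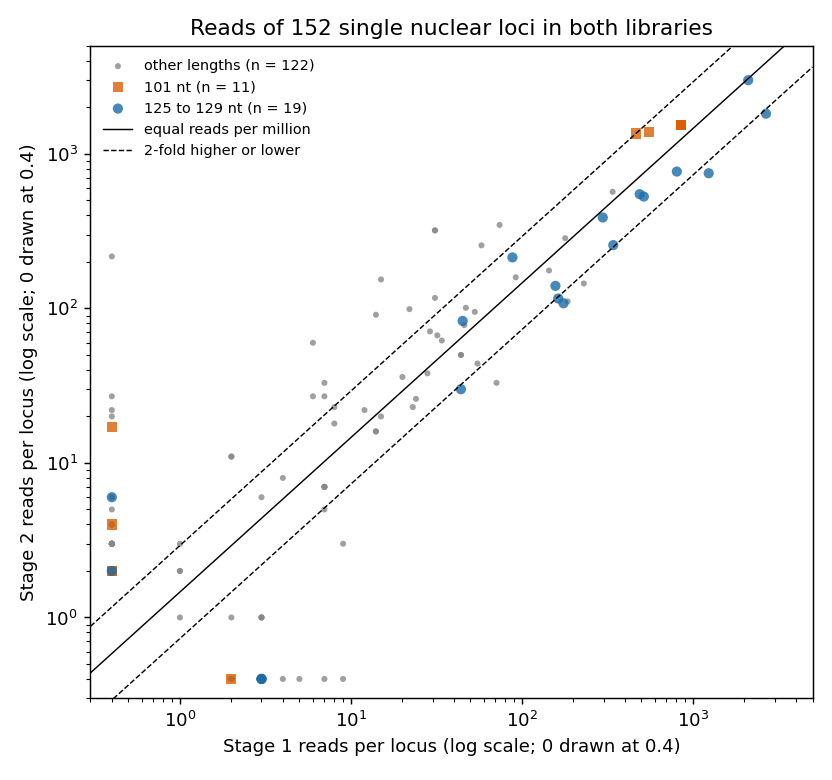
Stage 1 reads against stage 2 reads of each of the 152 members on log axes, with counts of 0 drawn at 0.4; squares are loci of 101 nt, large circles loci of 125 to 129 nt and small dots the other lengths. The solid line marks equal RPM and the dashed lines 2-fold; the strong squares lie above the solid line and most large circles below it.

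Members that shared both counts with another locus of exactly the same length were set apart, because their values would not be independent if a read was listed wherever it matched. No source used here says how the authors treated such reads, and no sequence was available to compare. Such a partner existed for 48 members (31.6%), beside 48.9% of all loci. With lengths allowed to differ by up to 2 nt, the number of members with an equal-count partner was 71. Of the 48, 24 had 2 or 3 reads, where few pairs of counts are possible. With 20 reads or more, 11 of 62 members (17.7%) had a partner, beside 11.8% of all loci with that many reads. They formed 5 groups. No member with 20 reads or more shared both counts with a locus of another length.

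The strongest group was the 4 loci of 101 nt. JNnc_loci1214 (chromosome 12, 6961306 to 6961442) and JNnc_loci1215 (chromosome 12, 6987599 to 6987735) were both 137 nt long, on the minus strand, 26156 nt apart, with 31 and 320 reads each. JNnc_loci1149 (chromosome 11, 1432176 to 1432317) and JNnc_loci1207 (chromosome 12, 1341254 to 1341395) were both 142 nt long, on the plus strand, with 44 and 50 reads each. The ends of the short arms of rice chromosomes 11 and 12 are known to share a duplicated segment, and whether these loci lie in it was not tested. In these groups the partners were all members.

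The other 2 groups of 20 reads or more held a mitochondrial locus. JNnc_loci0151 (chromosome 1, 41454816 to 41454928) and JNnc_loci0152 (chromosome 1, 41485789 to 41485901), of 113 nt, had 14 and 16 reads each, as had JNnc_loci1333 on chrM, the mitochondrial chromosome. JNnc_loci1245 (144 nt, chromosome 12, 20480603 to 20480746) had 12 and 22 reads, as had JNnc_loci1321 on chrM. Below 20 reads, JNnc_loci1221 and JNnc_loci1249 (107 nt, chromosome 12) had 2 and 11 reads each, as had 2 loci on chrM. In all, 14 members had an organelle partner, 8 of them with 4 reads or more. For these loci a nuclear and an organelle source of the reads cannot be told apart from the lists.

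A weaker group was evenly spaced. JNnc_loci0876, JNnc_loci0877 and JNnc_loci0878 (chromosome 7, from 17100329 to 17111241) were each 109 nt long with 3 stage 1 reads and 0 in stage 2, and both gaps between neighbours were exactly 5293 nt. JNnc_loci0524, JNnc_loci1193 and JNnc_loci1228, of 133 nt on chromosomes 4, 11 and 12, each had 7 and 7 reads. JNnc_loci1040, of 134 nt on chromosome 9, had the same counts but was not grouped with them because its length differed. Whether the loci of such a group share 1 set of reads was not tested, and the counts of members per length include every copy. With every group of equal length and counts entered once, 126 members were left and the ratio of all reads was 0.903 (0.883 to 0.924). The library totals were left unchanged in this ratio.

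Stage balance was summarised for the 62 members with 20 reads or more. At least 2-fold higher in stage 2 were 17 members (27.4%), beside 32.9% of all loci with that many reads, and at least 2-fold lower were 8 (12.9%), beside 11.6%. Intervals lay above 1 for 26 members (41.9%), beside 48.4%, and below 1 for 14 (22.6%), beside 22.8%. The median log2 ratio was 0.29, beside 0.47 over all such loci. Scaled to the median locus, 14 members were at least 2-fold higher (22.6%), beside 18.2%, and 13 at least 2-fold lower (21.0%), beside 22.2%, so the split between directions depended on the scaling. These shares were near those of all loci.

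**Figure D4:**
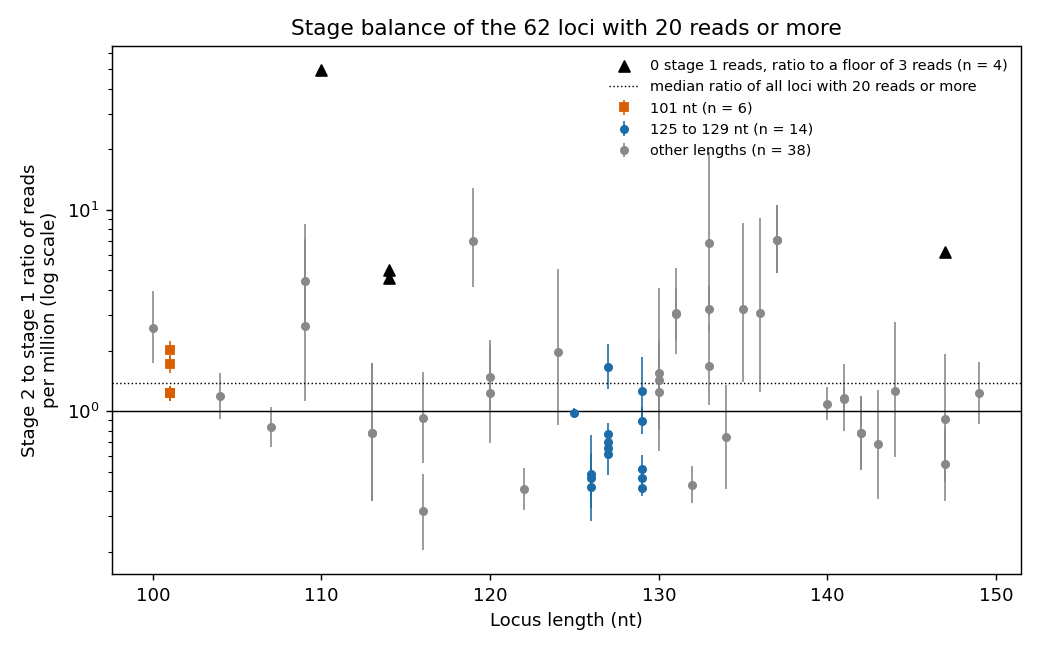
Ratio of stage 2 to stage 1 RPM (log axis) against locus length in nt for the 62 members with 20 reads or more, with 95% counting intervals as bars; triangles are loci with 0 stage 1 reads, set against a floor of 3 reads. The squares at 101 nt lie above 1, the circles from 125 to 129 nt mostly below 1, and the solid and dotted lines mark 1 and the median ratio of 1.39 over all loci with that many reads.

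Members higher in stage 2 had varied lengths. With 0 stage 1 reads were JNnc_loci0542 (110 nt, chromosome 4, 21065482 to 21065591) with 217 stage 2 reads, JNnc_loci0545 (147 nt) and JNnc_loci0546 (114 nt), neighbours on chromosome 4 with 27 and 22, and JNnc_loci0049 (114 nt, chromosome 1, 13923373 to 13923486) with 20. Against a floor of 3 stage 1 reads these were at least 49.5-fold, 6.16-fold, 5.02-fold and 4.56-fold higher, before the counting error of the stage 2 reads. The first 3 of these are on chromosome 4, plus strand. The equal loci JNnc_loci1214 and JNnc_loci1215 followed at 7.07 (4.88 to 10.6). JNnc_loci1115 (119 nt, chromosome 10) had 15 and 154 reads, a ratio of 7.03 (4.13 to 12.9), and JNnc_loci0602 (133 nt, chromosome 4) had 6 and 60, a ratio of 6.85 (2.97 to 19.4).

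Others of 109 to 133 nt were higher in stage 2 as well. The 7 members of 133 nt were listed in both libraries, with a summed ratio of 2.59 (2.14 to 3.16), or 2.81 (2.3 to 3.46) with the 3 of them that had 7 and 7 reads entered once. Those 3, at a ratio of 0.685 (0.205 to 2.29), were not on the higher side. JNnc_loci1004 (133 nt, chromosome 8, 26405059 to 26405191) gave most of it: its counts were 74 and 347, a ratio of 3.21 (2.49 to 4.18). JNnc_loci0683 (131 nt, chromosome 5, 23421984 to 23422114) had 58 and 256 reads, a ratio of 3.02 (2.26 to 4.09), and JNnc_loci0449 (131 nt, chromosome 3) had 22 and 99, a ratio of 3.08 (1.93 to 5.14). JNnc_loci0648 (109 nt, chromosome 5, 3362033 to 3362141) had 14 and 91 reads, a ratio of 4.45 (2.52 to 8.46). Scaled to the median locus JNnc_loci1004, JNnc_loci0683 and JNnc_loci0648 were at 2.31, 2.18 and 3.21, still above 1.

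Among members with 20 reads or more, the lowest ratio was that of JNnc_loci0799 (116 nt, chromosome 6, 28105287 to 28105402), which had 71 and 33 reads and a ratio of 0.318 (0.204 to 0.487). JNnc_loci0261 (122 nt, chromosome 2, 30218612 to 30218733) had 185 and 111 reads, a ratio of 0.411 (0.322 to 0.523). After JNnc_loci0803 came JNnc_loci0619 (126 nt) at 0.423 (0.329 to 0.540) and JNnc_loci1163 (132 nt, chromosome 11, 5890735 to 5890866), which had 230 and 145 reads and a ratio of 0.432 (0.348 to 0.534). The intervals of these 5 overlapped, so their order is not resolved at this depth. No member with 20 reads or more had 0 stage 2 reads.

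Other abundant members were nearer to equal RPM in the 2 libraries. JNnc_loci0130 (141 nt, chromosome 1) had 339 and 569 reads, a ratio of 1.15 (1.0 to 1.32), and JNnc_loci0687 (140 nt, chromosome 5) had 179 and 285, a ratio of 1.09 (0.901 to 1.32). JNnc_loci1128 (107 nt, chromosome 10, 19024730 to 19024836) had 144 and 176 reads, a ratio of 0.837 (0.668 to 1.05), and JNnc_loci0096 (104 nt, chromosome 1, 32456975 to 32457078) had 92 and 159. The ratio of JNnc_loci0096 was 1.18 (0.910 to 1.55). Each of these 4 intervals except that of JNnc_loci0130, whose lower bound was just above 1, included 1. Scaled to the median locus, JNnc_loci0096 was at 0.853, and JNnc_loci0130, JNnc_loci0687 and JNnc_loci1128 at 0.828, 0.785 and 0.603. The unscaled intervals of the last 3 lay wholly below the median ratio of 1.39. Among weaker members, JNnc_loci0564 (120 nt, chromosome 4) had 47 and 101 reads, a ratio of 1.47 (1.03 to 2.13). JNnc_loci0633 (130 nt, chromosome 5) had 32 and 67 reads, a ratio of 1.43 (0.927 to 2.26), and JNnc_loci0258 (124 nt, chromosome 2) had 8 and 23, a ratio of 1.97 (0.850 to 5.09). The intervals of the last 2 included 1.

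Being single by a 500 nt limit did not mean being far from other loci. The median distance to the next locus on the same strand was 123711 nt, but 24 members had one within 5000 nt and 10 within 1000 nt. On the minus strand of chromosome 4, JNnc_loci0618, JNnc_loci0619, JNnc_loci0620 and JNnc_loci0621 lay between 33772014 and 33778215 with gaps of 3521, 1193 and 983 nt, and were 126, 126, 127 and 126 nt long. They had 44 and 30, 175 and 108, 157 and 140, and 163 and 116 reads in stage 1 and stage 2. All 4 were lower in stage 2, at ratios of 0.467, 0.423, 0.611 and 0.487, each with an interval below 1, and 0.50 (0.438 to 0.571) together. They had nearly equal lengths but no equal counts.

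Other close neighbours differed more. JNnc_loci0799 and JNnc_loci0800, 1423 nt apart on chromosome 6, were both lower in stage 2 although JNnc_loci0800 had 2675 stage 1 reads and JNnc_loci0799 had 71. JNnc_loci0682 and JNnc_loci0683, 516 nt apart on chromosome 5, were both higher in stage 2, at 1.68 (1.07 to 2.68) and 3.02. JNnc_loci0757 and JNnc_loci0758, 578 nt apart on chromosome 6, went opposite ways on few reads, 6 and 27 against 9 and 3. JNnc_loci1189 (100 nt, 31 and 117 reads) lay on the plus strand of chromosome 11, 1600 nt from the 101 nt locus JNnc_loci1190 on the minus strand. No member had a locus on the opposite strand within 500 nt.

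Members were found on all 12 nuclear chromosomes, from 2 on chromosome 9 to 22 on chromosome 4. They made up 21.4% of the loci on chromosome 11, the highest share, and 4.44% on chromosome 9, the lowest. At the limits of the rule, 3 members were 100 nt long and 5 single nuclear loci were 99 nt long. Of the members of 100 nt, JNnc_loci1189 had 31 and 117 reads and the other 2 had 2 and 3 reads, all in stage 1, while the loci of 99 nt had 2 to 4. At the upper limit JNnc_loci1054 (149 nt) had 53 and 95 reads, and JNnc_loci0600 (150 nt), just outside, had 3 and 16. JNnc_loci0273 and JNnc_loci0274, of 101 and 102 nt, were left out because they lie exactly 500 nt apart, and had 48 and 83, and 39 and 54 reads.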

How the data were processed

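Per the labels' protocols, RNA of 50 to 500 nt was ligated to adaptors at both ends, and unamplified cDNA went to 454 sequencing. For each library the authors deposited 1 list of loci without a header, whose column 5 holds whole numbers taken here, from their values, as a raw count of the reads at a locus. No source used here names the aligner, the genome build, the locus definition or the treatment of reads with several matches. Lists were joined by locus name, and a locus missing from a list was given 0 reads. Lengths are end minus the deposited start. The starts printed here were raised by 1, as for BED files, so both printed positions belong to the locus.

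RPM, ratios and exact conditional binomial 95% intervals were computed with Python 3.11.15, numpy 2.4.6, pandas 2.3.3 and scipy 1.17.1, and plots with matplotlib 3.10.9. With 1 library per stage no test was run. Intervals of ratios, and floors, cover counting error only and are too narrow where reads were counted at several loci. Clopper-Pearson intervals of shares treat loci as independent, which equal-count loci may not be. Library totals for RPM were the summed reads of all listed loci, also where equal groups of members were entered once. Log2 ratios used 0.5 added reads. The computing of ratio intervals was checked on simulated independent counts, without reads counted at several loci or variation between libraries. Named loci are the 10 members with most reads in each library, the 5 highest and 5 lowest ratios with at least 20 reads, equal-count members with at least 20 reads, the strongest member of each length held by at least 4, and members at the limits. Any others were chosen after their values were seen. Members and lists were chosen with earlier results of these data known. Alternatives covered distance, strand, length convention, read minimum, scaling and equal-count groups.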

Additional observations from a re-analysis of the deposited data

How the results depend on the processing

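The ratio of all members' reads, 0.967, reversed to 1.02 with loci single at 200 nt, to 1.07 without the 10 strongest members and to 1.14 without the 2 strongest of 129 nt. It moved to 0.697 scaled to the median locus, to 0.903 with equal groups entered once, and to 0.865 without equal-count members of 20 reads or more. Members at least 2-fold higher in stage 2 numbered 29 at 200 nt, because more loci enter, and 11 at a minimum of 50 reads, because fewer do. Scaled to the median locus, 13 were lower by 2-fold or more, the median of log2 ratios was -0.18, and JNnc_loci0359, JNnc_loci1184, JNnc_loci1185 and JNnc_loci1239 reversed to 0.884. Equal-count members were 11 at 20 reads or more. Causes not named were not tested. The other 46 alternative values of these results stayed within 1.5 times their count or within their interval, as did 19 of 37 for named loci, with a bound held to within 2-fold. The exclusion of equal-count members and of the 2 loci of 129 nt was chosen after the data were seen. No paired analysis was possible because the groups hold a single library each, and none could be left out. Depth limits weak loci: 90 members had under 20 reads.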

Other observations

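Lengths were set beside the RefSeq gene table of rice assembly ASM3414082v1, which may not be the build of the deposited lists. No position within a chromosome was compared, and a shared length or chromosome identifies no locus. Lengths were set side by side exactly, so a locus whose ends differ slightly from those of a gene would be missed. The table lists 33 small nuclear RNA genes and 347 small nucleolar RNA genes of 100 to 149 nt. It also lists 213 ribosomal RNA genes in this range, of which 206 have a length of 119 nt, on chromosome 11. There were 3 members of 119 nt. Of the small nuclear RNA genes, 11 have a length of 103 nt, on chromosomes 3, 4, 6, 7, 10, 11 and 12, and 9 are 119 nt long. At exactly 101 nt the table has no small nuclear RNA gene and 6 small nucleolar RNA genes, on chromosomes 2, 3, 5, 6 and 8. To which class members of 101 nt belong, if any, was not tested. Members of 101 nt with 20 reads or more lay on chromosomes 3, 4, 11 and 12, and the 2 members of 103 nt had 11 reads in all. The most frequent small nucleolar RNA lengths in the table are 107 nt with 147 genes and 139 nt with 69. There were 4 members of 107 nt and none of 139 nt. In the range of 125 to 129 nt the table lists 2 small nuclear RNA genes, both of 125 nt, on chromosomes 1 and 2. It lists 5 small nucleolar RNA genes there, 1 of 126 nt and 4 of 129 nt.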
